A study of Homo sapiens with 24 samples.

Results

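NCI-H660, an established line of neuroendocrine (small cell) prostate cancer, was set against 3 other prostate cancer lines on arrays of cells that had received vehicle only. LNCaP (from a lymph node metastasis) and VCaP (from a vertebral one) depend on androgen signalling, and PC3, derived from bone, does not. The groups compared hold 8 of the 24 arrays of the series, chosen by their labels: 2 vehicle (DMSO) arrays of NCI-H660 against 2 vehicle arrays each of LNCaP, VCaP and PC3, with 2 independent biological replicates of each line collected after 24 hours. The other 16 arrays hold the same 4 lines after 24 hours in 0.5 µM or 10 µM I-BET762, an inhibitor of BET bromodomain proteins. They entered the same model, so the spread between replicates and the probe set read for each gene come from all 24 arrays. All lines were grown in the same serum-containing medium and carry their own mutations and copy number changes. NCI-H660 is 1 line, so the values describe this line beside 3 others and not a class of tumour.

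Neuroendocrine cells store peptides and amines in dense-core granules and release them when calcium rises, with the same vesicle machinery that neurons use at synapses. Basic helix-loop-helix, zinc finger and homeobox transcription factors switch this programme on, while the repressor REST keeps its genes silent in other epithelia. Prostate cancers treated by androgen withdrawal can come back as neuroendocrine tumours, which have lost the secretory genes of the luminal gland cell and often the retinoblastoma protein.

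Values are MAS5 signals, an array intensity on a linear scale, scaled by the authors to a target of 500 on every array. Median signals were 100.3 and 95.9 on the NCI-H660 vehicle arrays and 72.3 to 89.4 on those of the other lines. Replicates correlated at 0.941 to 0.947 over all probe sets, other lines among themselves at 0.832 to 0.872, and NCI-H660 with another line at 0.802 to 0.821. ERG goes against the labels of 2 lines. VCaP and NCI-H660 carry the TMPRSS2-ERG fusion, yet ERG had signals of 138 in NCI-H660 against 6984, 18.1 and 7.70 on the arrays labelled LNCaP, those labelled VCaP and those of PC3. ETV1, an ETS gene known to be active in LNCaP, was 129.8 in NCI-H660 against 43, 375 and 103 in the same order. Both sets of arrays are named here as their labels have them, and the mean of the 3 lines does not depend on which is which.

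A gene was called higher or lower in NCI-H660 when limma gave an adjusted p under 0.1 against the mean of the other 3 vehicle groups, the fold was over 2, some vehicle group had a mean signal of at least 100, and the difference ran the same way against each line. Of 19775 genes, 2597 were higher (13.1%) and 2073 were lower (10.5%). The median difference over all genes was -0.01 on the log2 scale. After median centring it was -0.33, with 1854 genes higher and 3145 lower, so that 37.1% of called genes were higher, beside 55.6% with the deposited scaling. Set against a single line, NCI-H660 had 3172 genes higher (16%) and 2460 lower (12.4%) than the arrays labelled LNCaP, 2907 (14.7%) and 2588 (13.1%) for those labelled VCaP, and 2909 (14.7%) and 2686 (13.6%) for PC3. Both NCI-H660 arrays lay above all 6 others for 19.6% of genes and below all 6 for 16.7%. When the threshold had to be passed against each line alone as well, 1338 genes were higher (6.77%) and 956 lower (4.83%). Where a group lay under 100, its mean was set to 100 before a fold was taken, and such folds are written as at least that size. The members and gene lists were chosen with results of these arrays known, and a list is described here by its counts beside those of all genes. Of all genes, 5934 were under 100 in every vehicle group and could not be called, so the shares among the 13841 others were larger. Lists differ in this, with 0 of 40 such genes for G1 control and 14 of 37 for neuroendocrine transcription factors. A list with few such genes can therefore exceed the shares of all genes for that reason alone.

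The genes that stood farthest above the other lines included a homeobox factor and its neighbours on chromosome 14. NKX2-1, a homeobox factor of lung, thyroid and forebrain, had signals of 7320.2 and 7240.2 in NCI-H660, against 54.1 and 82.6 on arrays labelled LNCaP, 30.5 and 6.8 on VCaP-labelled arrays and 12 and 6.6 in PC3. SFTA3, whose annotated span overlaps that of NKX2-1, had 15470.5 and 13738 in NCI-H660, against 35.5 and 17.3 on arrays labelled LNCaP, 3.9 and 21 on VCaP-labelled arrays and 22.6 and 7 in PC3. Both were at or near background in every other line, and NCI-H660 was at least 72.8-fold higher for NKX2-1 (limma adjusted p = 1.1e-08) and at least 146-fold higher for SFTA3 (adjusted p = 2.01e-06). The genes on either side of this pair were higher too, with MBIP at 7691 in NCI-H660 against 539, 460.4 and 548 on the arrays labelled LNCaP, those labelled VCaP and those of PC3 (log2 difference 3.90, standard error 0.12, adjusted p = 5.22e-11) and the antisense transcript NKX2-1-AS1 at 586 in NCI-H660 against 4.47, 8.13 and 8.36 (adjusted p = 3.63e-08).

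Other pairs of neighbours were bright together. CEACAM5, a cell surface glycoprotein used as a tumour marker, had signals of 14810.4 and 13477 in NCI-H660, against 23.9 and 21.4 on arrays labelled LNCaP, 40.1 and 69.4 on VCaP-labelled arrays and 353 and 526 in PC3. CEACAM6, which lies beside it on chromosome 19 and is close to it in sequence, was 13555 in NCI-H660 against 69.9, 47.9 and 1079.8 in the same order of lines, and the array may not fully separate the 2 genes. On chromosome 5, the integrin ligand EDIL3 (6659.5 ± 119, SD, n = 2, in NCI-H660), the hyaluronan link protein HAPLN1 (4748 ± 409) and the proteoglycan VCAN (981 in NCI-H660 against 41.3, 69.5 and 324) are adjacent among the genes measured, and all were higher (adjusted p = 1.02e-08, adjusted p = 4.09e-08 and adjusted p = 6.83e-08). SIX3, a homeobox factor of forebrain and eye, was at least 48.8-fold higher (adjusted p = 4.36e-06), and its antisense partner SIX3-AS1 was also called (adjusted p = 6.72e-05). The array annotation does not say whether each probe set reads only 1 strand of such pairs.

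The remaining genes of the leading 15 were of mixed kind. CXCR4, the receptor for the chemokine CXCL12, had signals of 10769 and 8934 in NCI-H660, against 48 and 101 on arrays labelled LNCaP, 173 and 176 on VCaP-labelled arrays and 101 and 99.3 in PC3, so that both NCI-H660 arrays lay above all others. COL21A1, a fibril-associated collagen, averaged 6543 ± 85.8, FXYD6, a regulator of the sodium pump, averaged 5576 ± 202, and NPTX1, a secreted neuronal pentraxin, averaged 5429 ± 247 (SD, n = 2 each). They were at least 65.4-fold higher, at least 55.8-fold higher and at least 53.6-fold higher. INSM1, SYT13, TUBB2B and UCHL1, also among the 15, belong to the neuroendocrine groups that follow.

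Transcription factors of neuroendocrine and neuronal cells were higher for 14 of 37 measured genes (37.8%, beside 13.1% of all genes) and lower for 3. INSM1, a zinc finger factor that drives endocrine differentiation, had signals of 7256 and 8165 in NCI-H660, against 403 and 396 on arrays labelled LNCaP, 5.6 and 31.6 on VCaP-labelled arrays and 3.4 and 1.6 in PC3. The arrays labelled LNCaP stood between, with NCI-H660 19.3 times higher, and the arrays of the other 2 lines were under 100. POU3F2 (BRN2), a POU factor of neuronal differentiation, had 3086 and 3058 in NCI-H660, against 54.8 and 32 on arrays labelled LNCaP, 30.8 and 19 on VCaP-labelled arrays and 41.3 and 29.5 in PC3, and SOX2, a factor of stem and neural progenitor cells, had 1913 and 1856 in NCI-H660, against 42.7 and 10.5 on arrays labelled LNCaP, 89.5 and 46.9 on VCaP-labelled arrays and 5.4 and 46.1 in PC3. By these probe sets neither reached 100 on any array of another line. Another pair of SOX2 probe sets was called higher too, and 1 more averaged 71.6 in NCI-H660 against 79.9, 81.1 and 97.2 and was not called.

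FOXA2, a forkhead factor of gut and neuroendocrine cells, was at least 8.92-fold higher (adjusted p = 2.99e-06), and its relative FOXA1, which opens chromatin in luminal prostate cells, was 1046 in NCI-H660 against 3992, 2751 and 901 in the order labelled LNCaP, labelled VCaP and PC3 and was not called, since it was lower in PC3. NEUROG3, the factor that starts pancreatic endocrine development, was at least 13.7-fold higher (adjusted p = 4.07e-07), SOX11 was at least 8.23-fold higher (adjusted p = 1.45e-05) and PROX1 was at least 6.56-fold higher (adjusted p = 4.61e-05). MYCL, a MYC family member first found in small cell lung cancer, averaged 1298 ± 67.9 (SD, n = 2) and was 3.69-fold higher (adjusted p = 3.98e-09). All 14 had both NCI-H660 arrays above the other 6. The 3 called lower, ISL1, TCF4 and EBF1, were under 100 in NCI-H660 and reached 100 in only 1 other line each (adjusted p = 0.0667, adjusted p = 0.0592 and adjusted p = 0.0315). HES6, a helix-loop-helix factor of neuronal cells, was 4280.3 in NCI-H660 against 287, 4799 and 153, as bright on the arrays labelled VCaP as in NCI-H660. A further 14 of the 37 stayed under 100 in every line, and the median log2 difference of the list was 1.04, or 0.00 with groups under 100 set to 100.

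Genes of the dense-core granule and of vesicle release were higher for 19 of 42 (45.2%, beside 13.1% of all genes) and lower for 3. CHGA, the chromogranin that packs the granule, had signals of 2592 and 2545 in NCI-H660, against 674 and 611 on arrays labelled LNCaP, 21.3 and 7.8 on VCaP-labelled arrays and 31.2 and 33.4 in PC3. SCG3, a secretogranin of the granule membrane, had 1942 and 2129 in NCI-H660, against 488 and 431 on arrays labelled LNCaP, 4.1 and 21.8 on VCaP-labelled arrays and 32.6 and 12.8 in PC3. In both, the arrays labelled LNCaP lay above those labelled VCaP and PC3, which were under 100, and NCI-H660 lay above all. The related CHGB was 1126 in NCI-H660 against 799.6, 34 and 54.9 in the same order, only 1.41 times higher than on the arrays labelled LNCaP, and SCG2 was at least 9.94-fold higher (adjusted p = 5.71e-07).

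Of the release machinery, SNAP25, a SNARE of the plasma membrane, had signals of 2905 and 2505 in NCI-H660, against 227 and 107 on arrays labelled LNCaP, 111 and 90.2 on VCaP-labelled arrays and 145 and 173 in PC3, a group 19.5-fold higher (log2 difference 4.32, standard error 0.28, adjusted p = 2.17e-08). The synaptotagmin SYT13 averaged 5574 ± 184 (SD, n = 2) and was at least 50.5-fold higher, the vesicle protein SV2A was at least 5.54-fold higher, and DNM1, the dynamin of synaptic vesicle retrieval, was at least 18.9-fold higher. CPE, the carboxypeptidase that trims prohormones, was 7018 in NCI-H660 against 665, 2036 and 265 (log2 difference 3.30, standard error 0.10, adjusted p = 6.07e-11). SYP, synaptophysin, gave a weaker difference, with 234 and 155 in NCI-H660, against 166 and 133.4 on arrays labelled LNCaP, 18.4 and 16.4 on VCaP-labelled arrays and 25.6 and 10.7 in PC3, and its arrays overlapped. It was called (adjusted p = 0.00195) with the floor at 100, but not with a floor of 200, after median centring or after quantile normalization. RAB27B, RAB3D and SYN2 went the other way: RAB27B, a GTPase of granule docking, was 145 in NCI-H660 against 2099.9, 458 and 2668 (log2 difference -3.25, standard error 0.15, adjusted p = 1.22e-09) and RAB3D 434 in NCI-H660 against 2275, 2363 and 1842 (log2 difference -2.31, standard error 0.14, adjusted p = 1.2e-08). PAM, which amidates peptides, was 2348 in NCI-H660 against 62.5, 71.2 and 3758 and CADPS, which primes granules, 2022 in NCI-H660 against 3162, 34.4 and 41.9, so each was as bright in 1 other line as in NCI-H660. When the threshold had to be passed against each line too, 11 of the 19 were left.

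Of 31 peptides and amine enzymes 6 were higher (19.4%, beside 13.1% of all genes) and 2 lower (6.45%, beside 10.5%), and 14 were under 100 in every line. CALCB and CALCA, which encode calcitonin-family peptides, averaged 2352 and 686 in NCI-H660, and were at least 20.0-fold higher and at least 6.86-fold higher (adjusted p = 1.02e-05 and adjusted p = 4.99e-05). GRP, the gastrin-releasing peptide, had signals of 561 and 666 in NCI-H660, against 29.2 and 4.3 on arrays labelled LNCaP, 6.7 and 9.7 on VCaP-labelled arrays and 10.0 and 5.7 in PC3. ADCYAP1 (PACAP) averaged 589 and NTS (neurotensin) 464 in NCI-H660, with group means under 100 in every other line. GAL (galanin) and NMU (neuromedin U) were lower, with GAL at 97.6 in NCI-H660 against 2195, 2128 and 3265 (at least 24.8-fold lower, adjusted p = 4.95e-10) and NMU at 707 in NCI-H660 against 2300.2, 4271 and 5095 (log2 difference -2.38, standard error 0.09, adjusted p = 2.19e-10). NPY was 266 in NCI-H660 against 19560.0, 34.4 and 46.1 in the order labelled LNCaP, labelled VCaP and PC3, and DDC, the decarboxylase of amine synthesis, was 4728 in NCI-H660 against 1214, 6096 and 13.5.

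**Figure D1:**
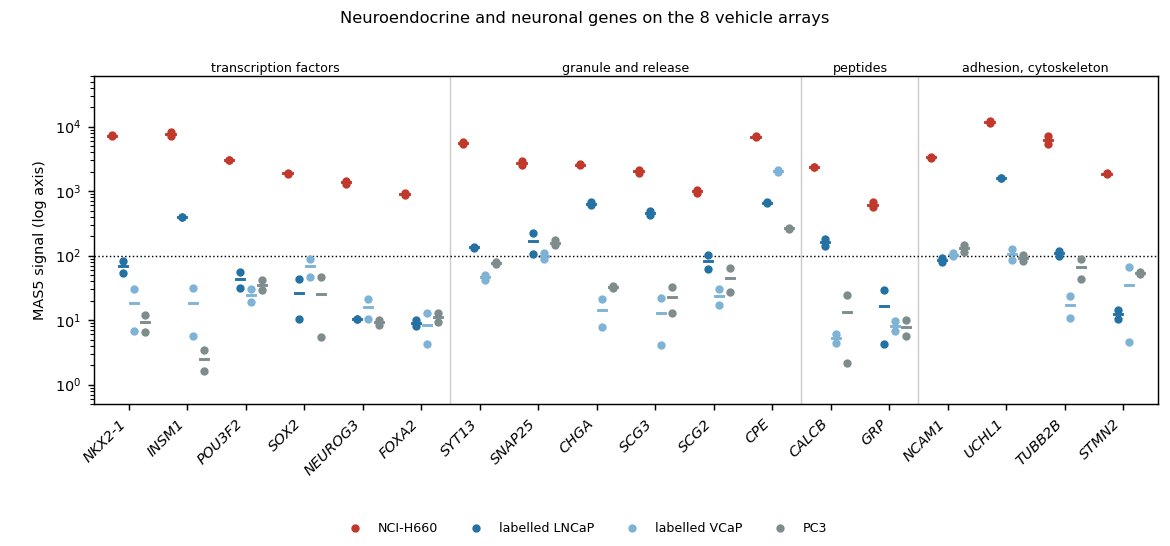
MAS5 signal (log axis) of 18 neuroendocrine and neuronal genes on the 8 vehicle arrays, with NCI-H660 (red) left of the arrays labelled LNCaP, those labelled VCaP and PC3 for each gene. Each dot is 1 array, each bar a group mean (n = 2) and the dotted line marks a signal of 100; every red dot lies above all dots of the other lines for its gene, and the arrays labelled LNCaP come next for INSM1, CHGA, SCG3 and UCHL1.

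Genes of neuronal adhesion, cytoskeleton and RNA binding were higher for 27 of 49 (55.1%, beside 13.1% of all genes) and lower for 3. Their median log2 difference was 2.40 (1.31 with groups under 100 set to 100), beside -0.01 over all genes. NCAM1 (CD56), an adhesion molecule used to diagnose neuroendocrine tumours, had signals of 3251 and 3400.1 in NCI-H660, against 90.8 and 78.3 on arrays labelled LNCaP, 108 and 97.6 on VCaP-labelled arrays and 116 and 148 in PC3. UCHL1, a neuronal deubiquitinase, had 12384 and 11429.8 in NCI-H660, against 1580.0 and 1624 on arrays labelled LNCaP, 86.6 and 126 on VCaP-labelled arrays and 102 and 82.3 in PC3. NCAM1 was near 100 in all other lines, while UCHL1 was bright on the arrays labelled LNCaP as well, where NCI-H660 was 7.43 times higher.

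ENO2, the neuronal enolase, averaged 10178 ± 1114 (SD, n = 2) and was 13.7-fold higher (log2 difference 3.77, standard error 0.10, adjusted p = 2.82e-11). TUBB2B, a neuronal tubulin, was at least 60.3-fold higher, STMN2, a stathmin of growth cones, at least 18.6-fold higher, and CRMP1, which acts on microtubules, at least 18.2-fold higher. Among RNA-binding proteins, ELAVL3 and CELF4 were at least 11.8-fold higher and at least 10.9-fold higher, and NOVA1, a splicing regulator of neurons, was at least 11.1-fold higher. INA, a neuronal intermediate filament, was 3150.5 in NCI-H660 against 3116, 29.4 and 61.1, the same on the arrays labelled LNCaP as in NCI-H660, and its arrays overlapped. The neurofilaments NEFL and NEFM were called lower, NEFL at 271 in NCI-H660 against 1692, 345 and 993, and NEFM reached 100 only on the arrays labelled LNCaP. DCX, RBFOX3 and ELAVL4 were under 100 in every line.

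REST, the repressor that binds neuronal genes, averaged 178 in NCI-H660 against 265, 598 and 522 on the arrays labelled LNCaP, those labelled VCaP and those of PC3. It was 2.45-fold lower (log2 difference -1.31, standard error 0.19, adjusted p = 6.86e-05), with both NCI-H660 arrays under all others. The mean over its probe sets gave a log2 difference of -0.29, which was not called. Of the 13 genes of the REST complex and of REST splicing, 4 were higher (30.8%, beside 13.1% of all genes), but 2 after median centring. The 4 were the REST corepressors RCOR2 (at least 4.22-fold higher, adjusted p = 0.000272) and RCOR3, the methyltransferase EHMT2 and the deacetylase HDAC2. SRRM4, a splicing factor that can inactivate REST, was under 100 in every line (36.8 in NCI-H660).

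The bases that REST contacts were looked for in the 300 bases around gene starts (250 before and 50 after, RefSeq, GRCh38.p14). The motif searched was TTCAGCACC, any 2 bases, then GGACAG, on both strands and with up to 2 mismatches. It was found in 8 of 2030 genes higher in NCI-H660 that have a sequence (0.394%), in 1 of 1649 lower (0.0606%), in 43 of 15384 genes measured (0.28%) and in 66 of all 35116 promoters (0.188%). In the granule list 3 of 33 held it (VGF, SYN1 and RPH3A), and 0 of these 3 was called by limma (0 also at an unadjusted p under 0.05). The related lists held fewer, with 0 of 29 neuroendocrine transcription factors, 0 of 24 peptide and amine genes and 1 of 36 genes of neuronal adhesion, cytoskeleton and RNA binding. The 4 exact matches among genes measured and that of HHATL, which has 1 mismatch and was called higher, are shown to set called beside uncalled genes. Each is written along the motif, with the bases that match it in capitals and the strand of its gene.

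LHX3, chr9:136205139-136205155, minus strand: TTCAGCACCgcGGACAG
HHATL, chr3:42701619-42701635, minus strand: gTCAGCACCttGGACAG
SYN1, chrX:47620074-47620090, minus strand: TTCAGCACCgcGGACAG
DRD3, chr3:114178966-114178982, minus strand: TTCAGCACCaaGGACAG
GRIA2, chr4:157220392-157220408, plus strand: TTCAGCACCgaGGACAG

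LHX3, a homeobox factor of pituitary and motor neurons, had signals of 459 and 404 in NCI-H660, against 201 and 238 on arrays labelled LNCaP, 74.5 and 79.9 on VCaP-labelled arrays and 64.9 and 89.7 in PC3, and HHATL, a relative of the hedgehog acyltransferase, had 671 and 619.8 in NCI-H660, against 12 and 12.4 on arrays labelled LNCaP, 33.3 and 18.9 on VCaP-labelled arrays and 17.2 and 70.6 in PC3. NCI-H660 lay above the other lines for both. SYN1 (synapsin), by contrast, was 135 in NCI-H660 against 103, 86.3 and 102, DRD3, a dopamine receptor, was under 100 in every line, and GRIA2, a glutamate receptor subunit, reached 100 only on the arrays labelled LNCaP (3.12 in NCI-H660 against 186, 2.39 and 3.82). A match was therefore seen beside genes that were called and genes that were not. The 250 bases before the start of LHX3, chr9:136205129-136205378 on the minus strand, carry the exact match in capitals close to the start of the gene.

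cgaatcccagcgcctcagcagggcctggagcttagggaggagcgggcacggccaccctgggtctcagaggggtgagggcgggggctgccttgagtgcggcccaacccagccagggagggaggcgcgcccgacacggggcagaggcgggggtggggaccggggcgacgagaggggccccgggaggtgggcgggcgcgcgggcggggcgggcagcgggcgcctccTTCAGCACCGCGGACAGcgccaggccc

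Notch ligands, receptors and targets, which decide between neuroendocrine and other fates in the lung, were higher for 9 of 28 (32.1%, beside 13.1% of all genes). They were lower for 3 (10.7%, near the 10.5% of all genes). DLL1, a ligand, had signals of 4315 and 3971 in NCI-H660, against 97.9 and 141 on arrays labelled LNCaP, 58.3 and 116 on VCaP-labelled arrays and 66.8 and 65.3 in PC3, and DLK1, a noncanonical ligand, averaged 4019 ± 159 (SD, n = 2) and was at least 40.2-fold higher (adjusted p = 4.78e-06). DLL3, an inhibitory ligand that marks small cell cancers, was 419 in NCI-H660 against 14.1, 12.1 and 12 by the probe set used here (adjusted p = 2.23e-05), while its other 3 probe sets, which can bind related transcripts, were not called. On the other side, the ligand JAG1 was 629 in NCI-H660 against 4114, 3098 and 4604 (log2 difference -2.64, standard error 0.13, adjusted p = 1.49e-09) and the receptors NOTCH2 and NOTCH3 were lower too (log2 difference -1.05, standard error 0.10, adjusted p = 7.22e-07 for NOTCH2, and log2 difference -1.36, standard error 0.19, adjusted p = 3.68e-05 for NOTCH3). Targets of the pathway were nevertheless among the higher genes. HEY1 was 4.53-fold higher, HEY2 was at least 6.20-fold higher, and HES1, the repressor of neuronal factors, was 3432 in NCI-H660 against 1749, 178 and 2832; leaving the arrays labelled VCaP out of the mean brought the HES1 difference to 0.63, under the fold threshold.

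Among what NCI-H660 lacked, genes regulated by androgen or made by prostate epithelium stood first. Of 35 genes 23 were lower (65.7%, beside 10.5% of all genes) and 3 higher, with a median log2 difference of -1.92 (-1.54 with groups under 100 set to 100). STEAP1, a metalloreductase of the prostate cell surface, had signals of 97.3 and 44.8 in NCI-H660, against 15013 and 14655 on arrays labelled LNCaP, 19474 and 19954 on VCaP-labelled arrays and 3149 and 3169 in PC3. PMEPA1, an inhibitor of TGF-beta signalling, had 59.4 and 20.7 in NCI-H660, against 14529 and 13594 on arrays labelled LNCaP, 4400.0 and 4222 on VCaP-labelled arrays and 4363 and 4108 in PC3. NCI-H660 lay under 100 for both while no array of the other lines lay under 3149, so NCI-H660 was at least 97.4-fold lower and at least 63.6-fold lower (adjusted p = 2.32e-08 and adjusted p = 1.27e-10). STEAP2, the elongation factor ELL2 and the transporter ABCC4 (MRP4) were at least 33.5-fold lower, at least 29.9-fold lower and at least 29.3-fold lower.

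The classical secretory markers were lower than in the androgen-dependent lines and, by the probe sets chosen, under 100 in PC3 as well. KLK3 (prostate-specific antigen) had signals of 23.8 and 7.6 in NCI-H660, against 8119.9 and 7743 on arrays labelled LNCaP, 20204 and 20567 on VCaP-labelled arrays and 47.2 and 11.9 in PC3. It was called lower (adjusted p = 9.31e-07), but not without NCI-H660 replicate 2 or without PC3 replicate 1. Another KLK3 probe set, of the type that can bind related transcripts, read 21.4 in NCI-H660 against 13258.6, 21567.9 and 65.5 and was called lower (limma adjusted p = 1.06e-08). A further KLK3 probe set of that type read 583.7 in NCI-H660 against 867.5, 1030.2 and 1350.7 and was not called. TMPRSS2 was 19.7 in NCI-H660 against 8849.9, 9904 and 47.7 in the same order by the probe set chosen, while another pair of its probe sets averaged 27.1 and 15.3 in NCI-H660, against 172.8 and 196.8 in PC3. KLK2, ACP3 and TRPM8, by their chosen probe sets, lay under 100 in both NCI-H660 and PC3. When the threshold had to be passed against each line too, 10 of the 23 lower genes were left. On the 10 µM arrays 13 of the 23 were called lower again. FKBP5, a chaperone cofactor induced by androgen, was 1627 in NCI-H660 against 7100.1, 7202 and 1839.6, near its level in PC3. The 3 that went against the list were KLK11, a kallikrein of many epithelia, with 2963 and 3051 in NCI-H660, against 27.1 and 3.9 on arrays labelled LNCaP, 34.9 and 4.4 on VCaP-labelled arrays and 10.3 and 11 in PC3, the factor MAF (at least 11.6-fold higher, adjusted p = 1.7e-06) and NDRG1 (25831 in NCI-H660 against 21989, 5636 and 7355, adjusted p = 4.05e-08). KLK11 was under 100 on all 6 arrays of the other lines.

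Of 18 factors of the luminal prostate 6 were lower (33.3%, beside 10.5% of all genes), 3 of them past the threshold against each line too, and 1 was higher. HOXB13, the homeobox factor of prostate and hindgut, had signals of 4.7 and 2.3 in NCI-H660, against 7123 and 6893 on arrays labelled LNCaP, 6119.5 and 6347 on VCaP-labelled arrays and 788 and 815 in PC3, and PRAC1, the gene beside it on chromosome 17, had 41.8 and 9 in NCI-H660, against 8446 and 8613 on arrays labelled LNCaP, 17308 and 17106 on VCaP-labelled arrays and 3664 and 3654 in PC3. Both were under 100 in NCI-H660 and 788 or more on every other array, with PC3 the lowest of the other lines. NCI-H660 was at least 32.7-fold lower for HOXB13 (adjusted p = 9.16e-09) and at least 81.3-fold lower for PRAC1 (adjusted p = 2.2e-05). SPDEF, an ETS factor of secretory epithelium, was 147 in NCI-H660 against 5289, 3417 and 1064 (log2 difference -4.31, standard error 0.23, adjusted p = 4.36e-09), GATA2 457 in NCI-H660 against 6977, 2092 and 713 (log2 difference -2.25, standard error 0.10, adjusted p = 6.83e-10) and GRHL2 1068 in NCI-H660 against 4757, 2998 and 2819 (log2 difference -1.69, standard error 0.11, adjusted p = 2.9e-08). The exception was TFAP2A, an AP-2 factor, at 3671 in NCI-H660 against 1128, 417 and 2209 (log2 difference 1.86, standard error 0.14, adjusted p = 1.11e-07).

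The largest fold among lower genes, with groups under 100 set to 100, belonged to a gene outside these lists. LDHB, the lactate dehydrogenase subunit that favours pyruvate, had signals of 33.2 and 35.9 in NCI-H660, against 22179.5 and 21988 on arrays labelled LNCaP, 11916 and 12159 on VCaP-labelled arrays and 15030.3 and 14495 in PC3, at least 158-fold lower (adjusted p = 9.31e-08). CMBL, a hydrolase, averaged 21.9 in NCI-H660 and was at least 57.2-fold lower, ALDH1A3, which makes retinoic acid, at least 52.4-fold lower, and C1orf116, an androgen-regulated epithelial protein, at least 40.0-fold lower. CALD1 (caldesmon), an actin-binding protein, had signals of 27.3 and 39.2 in NCI-H660, against 4253 and 4523 on arrays labelled LNCaP, 9969 and 10009.7 on VCaP-labelled arrays and 5171 and 5283 in PC3. AKAP12, a scaffold of protein kinase A, had 35.8 and 56.5 in NCI-H660, against 4836 and 4787 on arrays labelled LNCaP, 2403 and 1684 on VCaP-labelled arrays and 7579 and 8011 in PC3. No array of NCI-H660 reached 100 for any of these 6 genes.

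**Figure D2:**
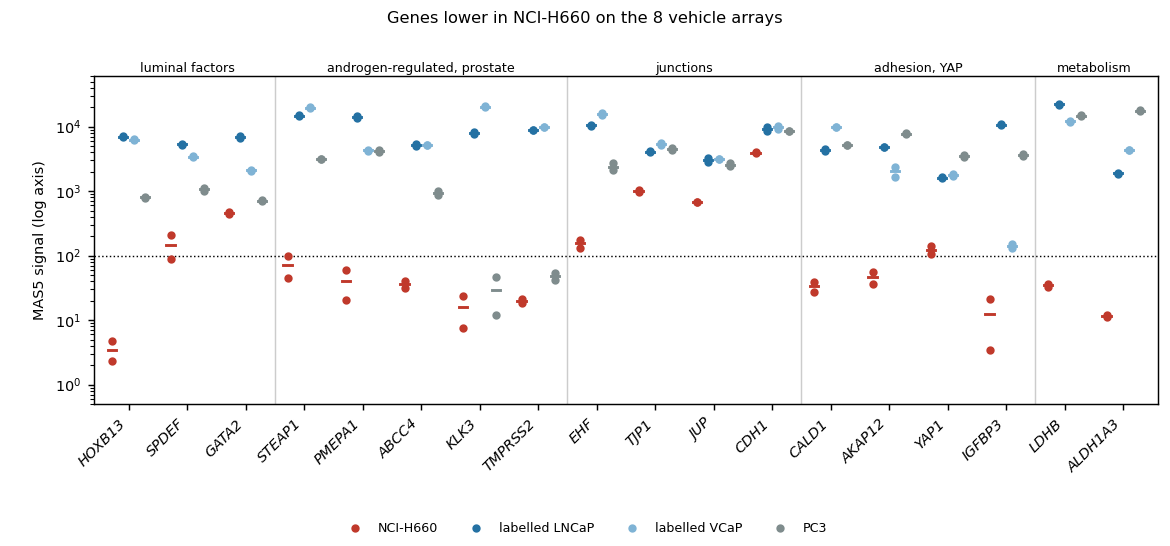
MAS5 signal (log axis) of 18 genes called lower in NCI-H660 on the 8 vehicle arrays, with NCI-H660 (red) left of the arrays labelled LNCaP, those labelled VCaP and PC3. Each dot is 1 array, each bar a group mean (n = 2) and the dotted line marks a signal of 100; PC3 lies with NCI-H660 under the floor for KLK3 and TMPRSS2, and far above it for HOXB13, STEAP1, LDHB and ALDH1A3.

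Of the keratins of simple epithelium, KRT18 averaged 14074 in NCI-H660 against 13331, 13120.0 and 20429 on the arrays labelled LNCaP, those labelled VCaP and those of PC3, and its partner KRT8 averaged 7297 in NCI-H660 against 3132, 2559 and 8232. KRT19, another of them, averaged 2019 in NCI-H660 against 3459, 59.5 and 15420.0, under 100 only on the arrays labelled VCaP. EPCAM, an epithelial adhesion molecule, averaged 13939 in NCI-H660 against 12739, 7292 and 13747. None of the 4 was called by limma with the fold and sign rules (adjusted p = 0.501, adjusted p = 2.07e-05, adjusted p = 0.171 and adjusted p = 0.0032). Of 44 keratins and junction genes 11 were lower (25%, beside 10.5% of all genes) and 6 higher (13.6%, near the 13.1% of all genes), the latter 2 after median centring. CDH1 (E-cadherin) had signals of 3992 and 3843 in NCI-H660, against 9715 and 8552 on arrays labelled LNCaP, 10336 and 9256 on VCaP-labelled arrays and 8465 and 8652 in PC3 (log2 difference -1.22, standard error 0.09, adjusted p = 6.37e-08), and both NCI-H660 arrays lay under all others. The tight junction scaffold TJP1 was 1012 in NCI-H660 against 4096, 5444 and 4552 (log2 difference -2.21, standard error 0.08, adjusted p = 1.52e-10), the desmosome and adherens linker JUP 681 in NCI-H660 against 3033, 3133 and 2584 (log2 difference -2.09, standard error 0.14, adjusted p = 3.61e-08), and the epithelial ETS factor EHF was 47.5-fold lower (adjusted p = 8.95e-08). DSP, desmoplakin, ran the other way at 16363 in NCI-H660 against 2949, 6669.9 and 7057 (log2 difference 1.66, standard error 0.09, adjusted p = 6.72e-09), as did ELF3, another epithelial ETS factor, at 4393 in NCI-H660 against 622, 422 and 1408 (log2 difference 2.62, standard error 0.15, adjusted p = 8.03e-09). The basal keratins KRT5 and KRT14 had group means of 29.2 and 9.63 in NCI-H660, both under the floor.

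Integrins, basement membrane and actin genes were lower for 14 of 47 (29.8%, beside 10.5% of all genes). The membrane linker EZR was the 1 higher (log2 difference 1.16, standard error 0.11, adjusted p = 7.86e-07), and 0 were higher by limma after median centring. ITGA6, the laminin-binding integrin, was 194 in NCI-H660 against 2132, 487 and 1664 (log2 difference -2.63, standard error 0.20, adjusted p = 1.36e-07), its ligand subunit LAMC1 939 in NCI-H660 against 9498, 3959 and 1438 (log2 difference -2.01, standard error 0.08, adjusted p = 3.41e-10), and the nonmuscle myosin MYH9 685 in NCI-H660 against 1473, 1598 and 2536 (log2 difference -1.41, standard error 0.12, adjusted p = 3.38e-07). TPM4, a tropomyosin, was under 100 in NCI-H660 and at least 6.27-fold lower (adjusted p = 8.52e-10). Several of the calls rest on bright PC3 arrays: LGALS1 (galectin-1) averaged 5.73 in NCI-H660 against 7.69, 29.9 and 18068 on the arrays labelled LNCaP, those labelled VCaP and those of PC3, and CAV1 (caveolin-1), which was not called, 34.8 in NCI-H660 against 5.65, 4.52 and 17769. With the threshold applied against each line too, 6 of the 14 were left, and without PC3 in the mean 7 genes of the list were higher.

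YAP1, the transcriptional coactivator of the Hippo pathway, had signals of 139 and 105 in NCI-H660, against 1585 and 1648 on arrays labelled LNCaP, 1721 and 1866 on VCaP-labelled arrays and 3671 and 3416 in PC3. Both NCI-H660 arrays were more than 10 times under every other array, and NCI-H660 was 17.8-fold lower (log2 difference -4.17, standard error 0.12, adjusted p = 4.49e-11). Of 29 genes of the YAP and TEAD list 8 were lower (27.6%, beside 10.5% of all genes) and 3 higher (10.3%, beside 13.1%). Lower genes numbered 15 without the arrays labelled VCaP in the mean and 5 with the threshold applied against each line, and higher genes 7 without PC3. LATS2, a kinase of the pathway and a target of it, was 146 in NCI-H660 against 1903, 423 and 2951 (log2 difference -3.19, standard error 0.12, adjusted p = 1.84e-10), the matricellular target CCN1 376 in NCI-H660 against 1475, 599 and 14452 (log2 difference -2.63, standard error 0.13, adjusted p = 1.5e-09), and IGFBP3, which binds insulin-like growth factors, averaged 12.5 in NCI-H660 against 10702, 142 and 3679. The DNA-binding partners split, with TEAD2 and TEAD4 lower (adjusted p = 1.01e-07 and adjusted p = 1.59e-05) and TEAD1 higher at 4321 in NCI-H660 against 3227, 773 and 3622 (log2 difference 1.05, standard error 0.10, adjusted p = 1.16e-06). WWTR1 (TAZ), the relative of YAP1, was 414 in NCI-H660 against 469, 102 and 3093 and was not called.

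RB1, the retinoblastoma gene that holds cells in G1, has 2 probe sets on the array, and they differed. The one with the higher mean log2 signal over all arrays had signals of 114 and 177 in NCI-H660, against 185 and 201 on arrays labelled LNCaP, 136 and 198 on VCaP-labelled arrays and 242 and 176 in PC3 and was not called (log2 difference -0.40, standard error 0.29, adjusted p = 0.311). The other had 3.2 and 0.9 in NCI-H660, against 808.9 and 743.5 on arrays labelled LNCaP, 885.6 and 954.6 on VCaP-labelled arrays and 522.4 and 740.9 in PC3. The mean that ranked the probe sets included the NCI-H660 arrays, so low signals there lowered the rank of this second probe set. On the vehicle arrays of the other lines it was the brighter one. With this probe set, an alternative chosen after seeing the data, NCI-H660 was at least 7.67-fold lower (limma adjusted p = 1.49e-10). NCI-H660 thus had no signal above the floor at the second probe set, while at the first its arrays overlapped those of the other lines, the highest of which was 241.5. Which part of the transcript each probe set reads was not analysed here. Of the 29 genes measured within 2 Mb of RB1, itself included, 4 were lower (13.8%, beside 10.5% of all genes) and 0 higher by limma: LPAR6, which lies in an intron of RB1, at 42 in NCI-H660 against 578, 353 and 285 (at least 3.87-fold lower, adjusted p = 1.44e-07), CAB39L (log2 difference -2.35, standard error 0.11, adjusted p = 1.24e-09), EBPL (log2 difference -2.95, standard error 0.08, adjusted p = 2.82e-11) and DLEU1 (log2 difference -1.65, standard error 0.08, adjusted p = 2.74e-09). ITM2B and MED4, which lie before RB1, were not called, with ITM2B at 9121 in NCI-H660 against 16859, 7657 and 6881 and MED4 at 1218 in NCI-H660 against 1251, 846 and 1102.

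Genes of RB, p53 and G1 control were higher for 11 of 40 (27.5%, beside 13.1% of all genes), but 7 after median centring and 7 past the threshold against each line. By the probe sets chosen CCND1 was the 1 lower, while 3 were lower after median centring and 2 with the mean over a gene's probe sets. CCND1 (cyclin D1), the partner of CDK4 and CDK6, had signals of 26.4 and 26 in NCI-H660, against 3571 and 3425 on arrays labelled LNCaP, 2123 and 2051 on VCaP-labelled arrays and 6488 and 6574 in PC3, at least 36.3-fold lower (adjusted p = 1.58e-08), and its second probe set was lower too. CDKN2A, which encodes the CDK4 and CDK6 inhibitor p16 and ARF, had 3671 and 3934 in NCI-H660, against 76 and 77.8 on arrays labelled LNCaP, 588 and 593 on VCaP-labelled arrays and 994 and 964 in PC3. Both NCI-H660 arrays of CDKN2A lay above all others, and those labelled LNCaP were under 100. CDKN1C (p57) was 3771 in NCI-H660 against 421, 333 and 590.2 (log2 difference 3.12, standard error 0.16, adjusted p = 2.46e-09), CDKN2D (p19) 3187 in NCI-H660 against 534, 622 and 679.5 (log2 difference 2.39, standard error 0.10, adjusted p = 5.08e-10) and CDKN1B (p27) 7508 in NCI-H660 against 2926, 3021 and 1121 (log2 difference 1.80, standard error 0.10, adjusted p = 5.03e-09). Cyclin E2 (CCNE2) was 10002 in NCI-H660 against 3322, 2336 and 1882 (log2 difference 2.03, standard error 0.10, adjusted p = 2.03e-09), and the Polycomb methyltransferase EZH2, an E2F target, 2717 in NCI-H660 against 834, 1215 and 1300.0 (log2 difference 1.31, standard error 0.10, adjusted p = 1.49e-07). E2F1 itself, MCM7, PCNA and MKI67 were not called, with E2F1 at 785 in NCI-H660 against 796, 589.5 and 713.

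MYC was the reverse of MYCL. MYC had signals of 794 and 759 in NCI-H660, against 5270.2 and 5382 on arrays labelled LNCaP, 6063 and 5912 on VCaP-labelled arrays and 7598 and 7897 in PC3, and NCI-H660 was 8.08-fold lower (log2 difference -3.02, standard error 0.08, adjusted p = 2.82e-11), with both arrays under all others. The probe set chosen for MYCN was under 100 in every line (38.1 in NCI-H660 against 53.8, 54.7 and 55.4), but another averaged 125.2 in NCI-H660 against 14.8, 8.4 and 6.4 and was called (limma adjusted p = 0.000572).

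**Figure D3:**
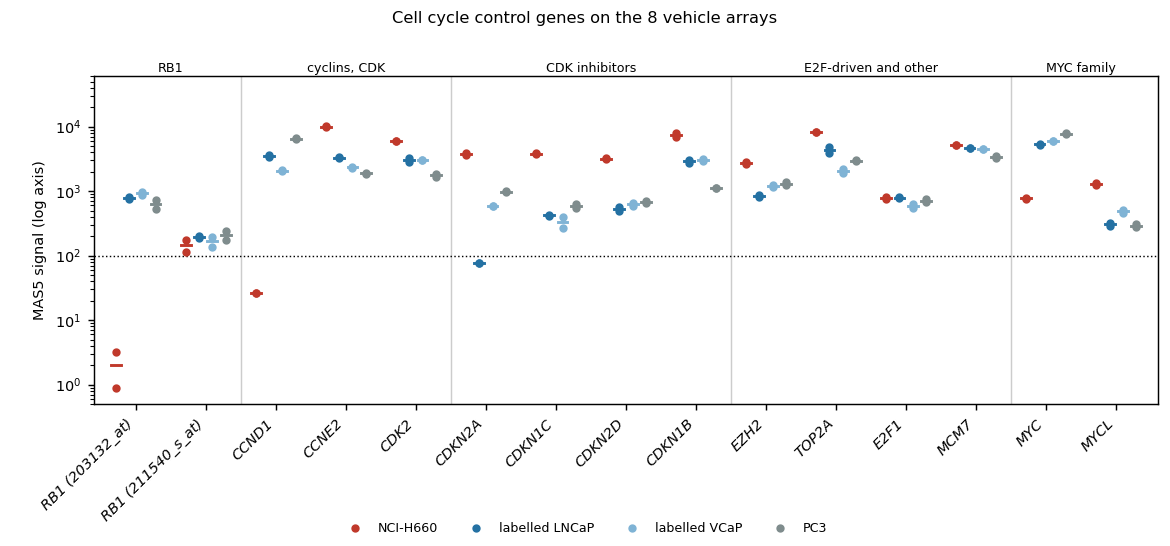
MAS5 signal (log axis) of cell cycle genes and of MYC and MYCL on the 8 vehicle arrays, with NCI-H660 (red) left of the arrays labelled LNCaP, those labelled VCaP and PC3. Each dot is 1 array, each bar a group mean (n = 2) and the dotted line marks a signal of 100; at the left RB1 probe set the red dots lie at 3.2 and 0.9, at the right one they overlap the others, CCND1 is under the floor only in NCI-H660, and the 4 CDK inhibitors are highest there.

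MHC class I and antigen processing genes were higher for 9 of 26 (34.6%, beside 13.1% of all genes) and lower for 1. HLA-B had signals of 18898 and 17577 in NCI-H660, against 1844 and 1667 on arrays labelled LNCaP, 3970.5 and 3681 on VCaP-labelled arrays and 7392 and 8621 in PC3, and HLA-C averaged 21286 in NCI-H660 against 2533, 6948 and 8028 (log2 difference 2.03, standard error 0.09, adjusted p = 5.03e-10). Both NCI-H660 arrays were the highest for each, though class I genes are alike enough that their probe sets can read each other's transcripts. B2M, the shared light chain, was 22033 in NCI-H660 against 17807, 15938 and 19289 and fell short of the fold threshold (log2 difference 0.32, standard error 0.09, adjusted p = 0.0133). Of the immunoproteasome subunits, PSMB9 was 2574 in NCI-H660 against 221, 124 and 350.2 (log2 difference 3.60, standard error 0.11, adjusted p = 4.98e-11). PSMB8 was 2357 in NCI-H660 against 419, 6.24 and 1130.5 (adjusted p = 4.83e-08). The third, PSMB10, was the 1 lower (log2 difference -1.005, standard error 0.33, adjusted p = 0.0244), with overlapping arrays, and the peptide transporters TAP1 and TAP2 were not called.

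Cell death genes were mixed, with 5 of 34 higher (14.7%, near the 13.1% of all genes) and 7 lower (20.6%, beside 10.5%). Without PC3 in the mean 8 were higher, and with the threshold applied against each line 3 were higher and 3 lower. BCL2, which blocks apoptosis, had signals of 2049.5 and 2181 in NCI-H660, against 31.6 and 4.8 on arrays labelled LNCaP, 62.4 and 75.4 on VCaP-labelled arrays and 145 and 70.0 in PC3, at least 20.6-fold higher (adjusted p = 2.81e-06), and PMAIP1 (NOXA), which promotes apoptosis, was 5824 in NCI-H660 against 259, 2122 and 2669 (log2 difference 2.36, standard error 0.13, adjusted p = 4.43e-09). The death receptor TNFRSF10B was 402 in NCI-H660 against 836, 4657 and 2446 (log2 difference -2.42, standard error 0.15, adjusted p = 2.2e-08) and TNFRSF10A was 202 in NCI-H660 against 296, 888 and 585 (log2 difference -1.42, standard error 0.14, adjusted p = 1.18e-06). Their adaptor FADD was 811 in NCI-H660 against 1324, 2061 and 3344 (log2 difference -1.37, standard error 0.09, adjusted p = 3.67e-08). STING1, a sensor adaptor of cytosolic DNA, was at least 4.82-fold higher (adjusted p = 6.83e-06), while its partner CGAS was 137 in NCI-H660 against 32.9, 6.75 and 632 and was not called.

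Growth factor and cytokine receptors were higher for 9 of 39 (23.1%, beside 13.1% of all genes) and lower for 7 (17.9%, beside 10.5%), the last 11 after median centring. KIT, the receptor for stem cell factor, had signals of 4626 and 4268 in NCI-H660, against 12.6 and 10.9 on arrays labelled LNCaP, 11.6 and 29.1 on VCaP-labelled arrays and 7.3 and 11.5 in PC3, and RET, the receptor for GDNF-family ligands, had 2589 and 2713 in NCI-H660, against 15 and 7.6 on arrays labelled LNCaP, 21.2 and 34.6 on VCaP-labelled arrays and 9 and 3.8 in PC3. Both were at background on all 6 arrays of the other lines, and NCI-H660 was at least 44.5-fold higher and at least 26.5-fold higher (adjusted p = 1.83e-08 and adjusted p = 4.06e-07). ERBB4 was at least 7.19-fold higher (adjusted p = 6.47e-06), whereas ERBB2 (HER2) was 329.9 in NCI-H660 against 698, 1515 and 901 (log2 difference -1.58, standard error 0.12, adjusted p = 1.69e-07). IL6ST, the shared subunit of IL-6 family receptors, was 9054 in NCI-H660 against 1969, 1253 and 2666 (log2 difference 2.28, standard error 0.12, adjusted p = 4.81e-09), and 2 of the receptors it pairs with, OSMR and IL6R, were lower (at least 8.86-fold lower for OSMR, adjusted p = 2.64e-09; adjusted p = 9.79e-09 for IL6R). LIFR, which also pairs with it, was higher at 2217 in NCI-H660 against 1274, 482 and 169 (log2 difference 2.23, standard error 0.18, adjusted p = 2.32e-07).

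Of 10 fibroblast markers 1, COL1A2, was higher (10%, beside 13.1% of all genes; at least 10.8-fold higher, adjusted p = 1.63e-05), and 8 were under 100 in every line; the summed signal of all 10 was 1724 on each NCI-H660 array and 289.7 to 936.5 on the others. None of 9 leukocyte genes was called by limma (2, CD79A and FCER1G, had an unadjusted p under 0.05), and PTPRC (CD45) was 28.6 in NCI-H660. Of 6 endothelial genes 1, PECAM1, was lower (16.7%, beside 10.5% of all genes; adjusted p = 0.000226), with overlapping arrays, and 4 were under 100 in every line. The PECAM1 call was lost without PC3 in the mean, with the threshold applied against each line, and on the treated arrays at both doses. The neuroendocrine markers INSM1, CHGA, NCAM1, SNAP25, SCG3, ENO2 and DLL3 were called higher in NCI-H660, DLL3 by the chosen probe set only. CHGB and SYP were called too, but CHGB lay only a little above the arrays labelled LNCaP, and the SYP arrays overlapped. Of the luminal markers, HOXB13 was under 100 in NCI-H660 by both its probe sets, and KLK3 and TMPRSS2 by the chosen ones. FOXA1, KRT8 and KRT18, also luminal markers, were not called.

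**Figure D4:**
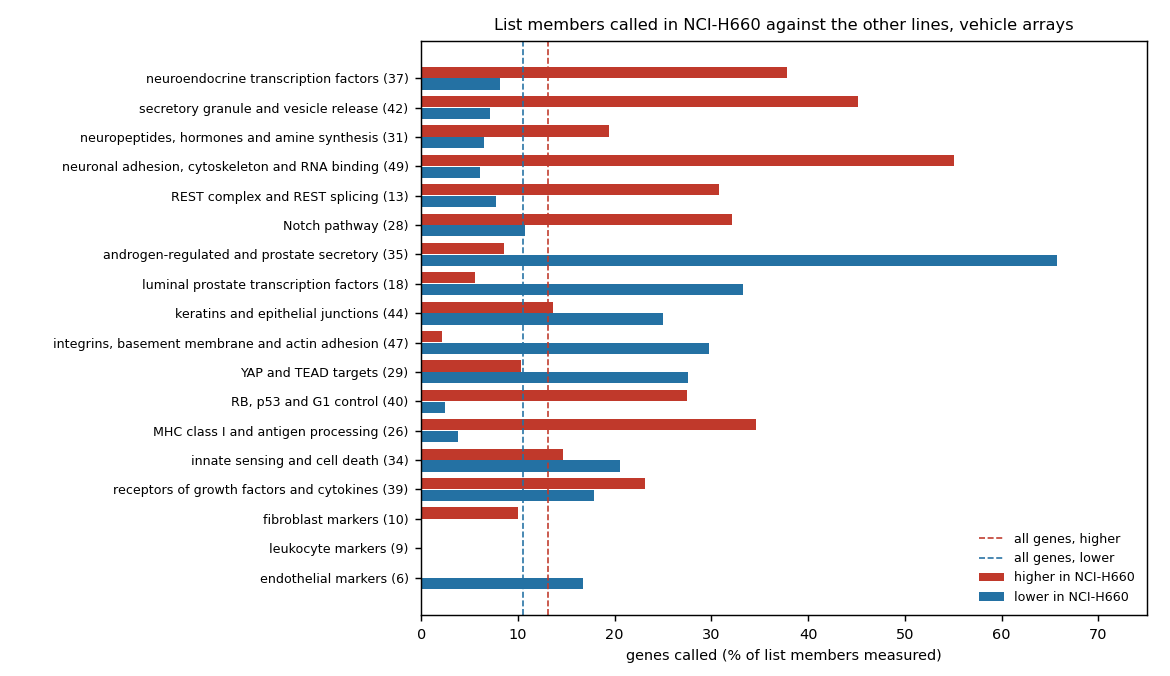
Share of the measured members of each gene list (number in brackets) that was called higher (red) or lower (blue) in NCI-H660 against the other lines on vehicle arrays. Dashed lines are the shares over all 19775 genes, 13.1% higher and 10.5% lower. Of these genes 5934 were under 100 in every vehicle group and could not be called. The higher share is widest for neuronal adhesion, cytoskeleton and RNA binding (55.1%) and the lower share for androgen-regulated and prostate secretory genes (65.7%).

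The same contrast was taken between the treated groups, on the 16 other arrays, within the same model, so the estimate of the spread and the choice of probe sets are shared with the vehicle comparison. At 0.5 µM I-BET762, 2310 genes were higher (11.7%) and 1949 lower (9.86%) in NCI-H660, and at 10 µM 2131 (10.8%) and 1949 (9.86%). Of the 2597 genes higher in vehicle, 1956 (75.3%) were called higher again at 0.5 µM and 1676 (64.5%) at 10 µM. Of the 2073 lower, 1413 (68.2%) and 1226 (59.1%) were called lower again. The 14 transcription factors of the neuroendocrine list were called again at 0.5 µM in all 14 cases and at 10 µM in 11, and of the 19 granule genes 17 and 18 were. INSM1 averaged 7711, 3026 and 1603 in NCI-H660 at vehicle, 0.5 µM and 10 µM, and HOXB13 3.54, 9.62 and 2.60. The INSM1 change from vehicle did not pass the adjusted p threshold at either dose (limma adjusted p = 0.695 at 0.5 µM and 0.2 at 10 µM). Its standard error (1.04) is shared by all groups, also those of other lines with INSM1 at background. Within NCI-H660 the arrays of the 3 groups lay apart, at 7256.5 and 8164.8 in vehicle, 3020.5 and 3032.1 at 0.5 µM, and 1491.1 and 1714.6 at 10 µM.

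For MYC, KRT8, HES1, FOXA1 and ENO2, all chosen to mark the identity of the lines, the change with 10 µM I-BET762 differed between NCI-H660 and the mean of the other 3 lines (limma, interaction of line and treatment). For HES1 the arrays labelled LNCaP carried most of it (log2 change -3.34), while NCI-H660 (-0.22) lay between the arrays labelled VCaP (-0.76) and PC3 (0.145). This test was read only for the identity genes, so no share over all genes stands beside it. CCND1 passed this test too, but was under 100 in NCI-H660 at every dose, so its change there has no measured size. MYC averaged 777 in vehicle, 863 at 0.5 µM and 1289 at 10 µM in NCI-H660, while its mean was lower than in vehicle at both doses in each of the other lines. At 10 µM NCI-H660 was no longer the lowest. KRT8 and ENO2 ran the other way, with means below vehicle in NCI-H660 and above it in the others. The differences of these changes are given with their errors in the closing section.

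**Figure D5:**
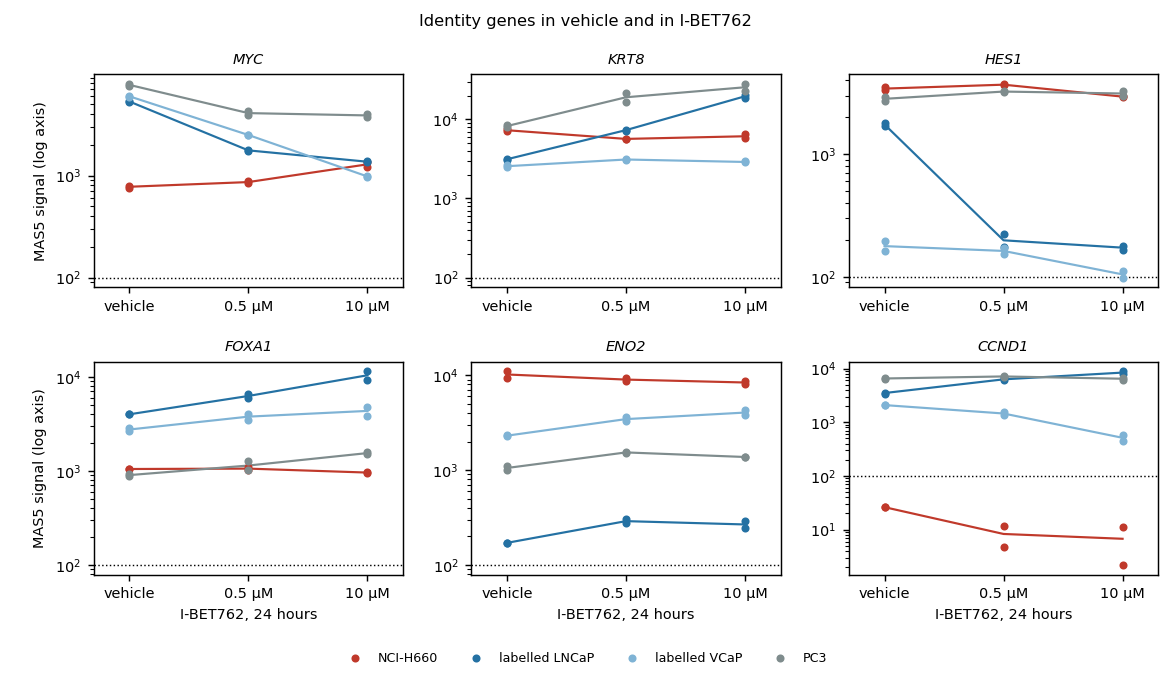
MAS5 signal (log axis) of MYC, KRT8, HES1, FOXA1, ENO2 and CCND1 in the 4 lines at vehicle, 0.5 µM and 10 µM for 24 hours. Each dot is 1 array, lines join group means (n = 2), red is NCI-H660 and the dotted line marks a signal of 100; MYC is lowest in NCI-H660 at vehicle and 0.5 µM but not at 10 µM, and CCND1 stays under the floor there at every dose.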

How the data were processed

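Signals of 54675 probe sets on 24 Affymetrix U133 Plus 2.0 arrays were analysed. The authors made the deposited values, an intensity on a linear scale, with Micro Array Suite 5.0 (MAS5), scaled to a target of 500; their detection calls were not used here. The log2 signals of 54613 probe sets, without 62 controls, entered 1 linear model of the 12 combinations of line and treatment (limma 3.58.1, R 4.3.3; 12 residual and 1.29 prior degrees of freedom), and every adjusted p is limma's after Benjamini-Hochberg over those probe sets. Each group has 2 arrays, which limits the precision.

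The platform annotation gave 41091 probe sets 1 gene, 1801 several and 11721 none; those with 1 gave 19775 genes, of which 19735 matched the RefSeq table. For each gene the probe set brightest on average over all arrays (mean of log2) was read, and probe sets of the _x_at type, which can bind related transcripts, only if no other was there. Genes named were up to 15 in each direction with the largest difference after flooring, among called genes whose arrays lay apart and whose fold was over 2 against each line; a list of identity genes; up to 5 members of each list per direction, and members that alone moved against their list; and genes near RB1. Further members and neighbours were named after their values were seen. The members and lists were chosen with earlier results of these data known. Some genes are not reported here. Promoters came from RefSeq (GRCh38.p14).

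On simulated data for the vehicle contrast, run on 54613 probe sets, 66% of probe sets changed by 1.5 on the log2 scale and 91% of those changed by 3 were called. False calls numbered 3, and 15 when only the adjusted p and the fold were required. Unchanged probe sets were simulated with NCI-H660 at the mean of the other lines. The same-sign rule tends to reject such probe sets by construction, so the 3 cannot measure false calls in the real data. Alternatives were other floors, scalings, thresholds, probe set rules and fits, the replicate number as a block, and leaving out a line or an array. Replicate numbers did not pair the samples (correlations of deviations -0.001 to 0.059).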

Additional observations from a re-analysis of the deposited data

Results flagged for a closer look

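The changes with I-BET762 that follow differed between NCI-H660 and the mean of the other 3 lines by limma's interaction of line and treatment. All changes are log2 differences from vehicle, in the order NCI-H660, labelled LNCaP, labelled VCaP, PC3. MYC changed by 0.73, -1.96, -2.61 and -0.996 at 10 µM, a difference of 2.586 (standard error 0.114, adjusted p = 2.96e-07), and the difference at 0.5 µM was 1.411 (adjusted p = 0.000162). KRT8 changed by -0.26, 2.65, 0.18 and 1.63 at 10 µM, a difference of -1.738 (standard error 0.156, adjusted p = 3.04e-05), with -1.265 at 0.5 µM (adjusted p = 0.00147).

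The ENO2 change differed by -0.803 at 0.5 µM (adjusted p = 0.0114) and -0.888 at 10 µM (adjusted p = 0.00143), and that of FOXA1 by -1.059 at 10 µM (adjusted p = 0.00137). HES1 differed by 1.134 at 0.5 µM (adjusted p = 0.00319) and 1.103 at 10 µM (adjusted p = 0.00069), and the arrays labelled LNCaP carried most of it, with a change of -3.34 at 10 µM against -0.22 in NCI-H660. CCND1 differed by -2.122 at 10 µM (adjusted p = 0.0449), but it was under 100 in NCI-H660 at every dose, so its change there has no measured size. A group of 2 arrays was too small to search for single arrays that stand apart.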

How the results depend on the processing

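Counts and differences were recomputed under each alternative, and the differences of named genes kept their direction and their side of the threshold in 1234 cases, lost the call in 12, gained it in 6 and changed sign in 9. Median centring raised the genes lower in NCI-H660 to 3145 and those lower than on the arrays labelled VCaP to 3915. Requiring the threshold against each line left 1338 higher and 956 lower genes, 11 granule genes higher and 10 androgen-regulated genes lower. The sign turned for KRT19 (-1.853) and ERG (-0.73) without the arrays labelled VCaP in the mean, for ERG (-1.36), KRT18 (0.083) and CAV1 (2.434) without PC3, and for ERG (-0.034) and MYCN (0.37) with the mean over a gene's probe sets; none of these genes was called in the comparison as reported.

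Leaving out 1 vehicle array at a time, with the lone array taken to vary like the other groups, gave 2464 to 2586 higher and 2004 to 2115 lower genes, 14 to 15 neuroendocrine factors higher and 19 to 23 androgen-regulated genes lower, while KRT18 ranged from -0.261 to 0.011 and MYCN from -1.355 to 0.066. KLK3 was not called without NCI-H660 replicate 2 or without PC3 replicate 1. With the replicate number as a block, 2598 genes were higher and 2073 lower, and the counts of neuroendocrine factors (14), granule genes (19) and androgen-regulated genes (23) did not move. Genes near a signal of 100, where MAS5 values are noisy, limit the folds to bounds.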

Other observations

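Called genes were not spread evenly over the chromosomes. On chromosome 18, 22.1% of 303 genes were higher in NCI-H660 and 8.3% lower, and on chromosome 6, which holds the MHC, 21.5% of 1089 genes were higher and 5.9% lower. Chromosome 8 had 17.3% of 715 genes higher and 9.4% lower, and chromosome 14, which holds NKX2-1 and SFTA3, had 16.7% of 611 genes higher and 6.7% lower. The shares ran the other way on chromosome 11, which holds CCND1 (9.0% of 1143 genes higher and 16.3% lower). So they did, among others, on chromosome 15 (10.0% and 16.0% of 612), chromosome 21 (9.5% and 15.3% of 242) and chromosome 22 (7.6% and 16.1% of 460). Over all genes the shares were 13.1% higher and 10.5% lower. Copy number was not measured, so its part in these shares was not tested.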
